A study of Rattus norvegicus with 7 samples.

Results

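Ventricular cardiomyocytes of newborn rats transfected with miR-590-3p were compared with the same kind of cells transfected with cel-miR-67, 1 library each. Genes of the deposited table entered if their mean over the 7 libraries of the series reached 1 RPKM. These were 12330 of 17141 genes. RPKM is a read number divided by the length of the gene and by a size assigned to the library. The change of a gene is log2 of (RPKM + 1) after miR-590-3p over (RPKM + 1) after cel-miR-67, so a change of 1 is a 2-fold difference on that scale, and low genes are understated. The study, whose title concerns microRNAs that induce cardiomyocyte proliferation, transfected 6 human miRNAs (miR-590-3p, miR-1825, miR-199a-3p, miR-302d-3p, miR-33b* and miR-373-3p) and cel-miR-67, a miRNA of Caenorhabditis elegans. All cells came from wild-type Wistar rats at postnatal day 0. The atria were removed, and cells that did not attach to plastic, mostly cardiomyocytes, were used. Each culture received 25 nM of 1 synthetic miRNA by lipid transfection and was harvested after 72 h. No label names cel-miR-67 as the control, but the authors' deposited ratios have it as the denominator. All 6 comparisons share that 1 library, and the 7 libraries were never repeated, so "higher" and "lower" describe these libraries and no p-value can be given. Values after the other 5 miRNAs are listed below in the order miR-1825, miR-199a-3p, miR-302d-3p, miR-33b*, miR-373-3p.

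A miRNA is a short RNA that guides an Argonaute protein to matching sites, mostly in the 3′ ends of messenger RNAs, through its seed (bases 2 to 8), and lowers the output of these messengers. miR-590-3p is known from earlier work as a miRNA that makes newborn rodent cardiomyocytes enter the cell cycle. Heart muscle cells answer stress with several separate programmes: chaperones against misfolded protein, antioxidant enzymes, p53-induced and hypoxia-induced genes, interferon and inflammation genes, natriuretic peptides and other fetal genes under load, and removal of material through autophagy and the lysosome. These programmes were followed through 13 stress lists. The sequence of miR-590-3p and its matches in messenger RNAs were not analysed here.

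The cell type on the label was checked first. Tnnt2 and Myh6, which encode cardiac troponin T and the alpha myosin heavy chain, stood at 1607 and 967 RPKM after miR-590-3p, against 2433 and 1307 RPKM after cel-miR-67. The 7 cardiomyocyte markers summed to 3458 RPKM after miR-590-3p, to 3848 to 4275 RPKM after the other 5 miRNAs and to 4803 RPKM after cel-miR-67, and none was at 0 after miR-590-3p or cel-miR-67. Markers of other cells were present too. The 12 fibroblast markers summed to 1034 RPKM after miR-590-3p and 1424 RPKM after cel-miR-67, and the 10 smooth muscle and pericyte markers to 1723 RPKM after miR-590-3p and 1421 RPKM after cel-miR-67. Endothelial markers (9) summed to 16.3 RPKM after miR-590-3p and 26.8 RPKM after cel-miR-67, and macrophage and leukocyte markers (11) to 19.1 RPKM after miR-590-3p and 23.6 RPKM after cel-miR-67. Epicardial, Schwann cell and erythroid markers summed to 42.6, 9.03 and 4.20 RPKM after miR-590-3p, against 43.4, 9.84 and 6.64 RPKM after cel-miR-67. Smooth muscle and pericyte markers were thus the only ones of these sums that were higher after miR-590-3p, and they lay within the 1272 to 1936 RPKM of the other 5 miRNAs. In bulk RNA, fewer cells of a type and less RNA per cell cannot be told apart. The part of cell composition in the results below was not tested. Listed reads ranged from 22616067 to 31963293 per library, with 26468593 after miR-590-3p and 24836246 after cel-miR-67. Mitochondrial transcripts took 41.4% of them after miR-590-3p and 41.0% after cel-miR-67.

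Genes of cell division stood highest after miR-590-3p relative to cel-miR-67. Of 12330 genes, 186 were at least 2-fold higher (1.51%) and 94 at least 2-fold lower (0.762%). The list of G2 and M phase genes supplied 25 of the 186, and all 30 of its members that passed the filter were above 0 (49.7% of all genes), with a median change of 1.30, beside a median near 0 over all genes (-0.0020). The same list had medians between 0.64 and 1.63 after the other 5 miRNAs, so its higher level was found after all 6 miRNAs. miR-1825 gave the highest of the other 5 values for 30 of the 30 members, and miR-590-3p came second of the 6 for 27 of 30 (19% of all genes).

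Ccnb1, which encodes the mitotic cyclin B1, stood at 66.4 RPKM after miR-590-3p, at 107, 44.6, 50.2, 48.4 and 56.3 RPKM after the other 5 miRNAs and at 10.4 RPKM after cel-miR-67. It was the highest change of any protein-coding gene that passed the filter, at 2.57, and rests on 2604 reads after miR-590-3p and 378 after cel-miR-67. All 6 miRNA libraries were far above cel-miR-67, and miR-590-3p was exceeded by miR-1825 alone. Ube2t, a ubiquitin-conjugating enzyme of DNA crosslink repair, followed with 29.8 RPKM after miR-590-3p and 6.45 RPKM after cel-miR-67, a change of 2.05. Mrps12, a protein of the mitochondrial ribosome, had 20.2 RPKM after miR-590-3p and 4.66 RPKM after cel-miR-67, a change of 1.90. Most of the other top genes act in mitosis: the kinase genes Aurka (1.71) and Nek2 (1.66), the securin gene Pttg1 (1.73), the kinetochore and spindle genes Knstrn (1.66), Cenpf (1.63), Kif11 (1.57) and Cenpw (1.56), the cytokinesis gene Ect2 (1.57) and the topoisomerase gene Top2a (1.54). Depdc1 (1.79), Aif1l (1.64) and Arhgap11a (1.55) complete the 15 highest.

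S phase genes were higher too, but less. Their median change was 0.32 with 22 of 26 above 0 (49.7% of all genes). Only Tk1, thymidine kinase of the nucleotide salvage pathway, passed 2-fold, with 17.0 RPKM after miR-590-3p and 5.27 RPKM after cel-miR-67. Ccne2, a G1/S cyclin, was the lowest member, with 8.56 RPKM after miR-590-3p, 12.3, 19.4, 10.9, 9.14 and 12.3 RPKM after the other 5 miRNAs and 13.2 RPKM after cel-miR-67. Its level was the lowest of the 6 miRNA libraries, though the ratio to the next lowest, 0.937, had an interval that held 1 (0.837 to 1.05).

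**Figure D1:**
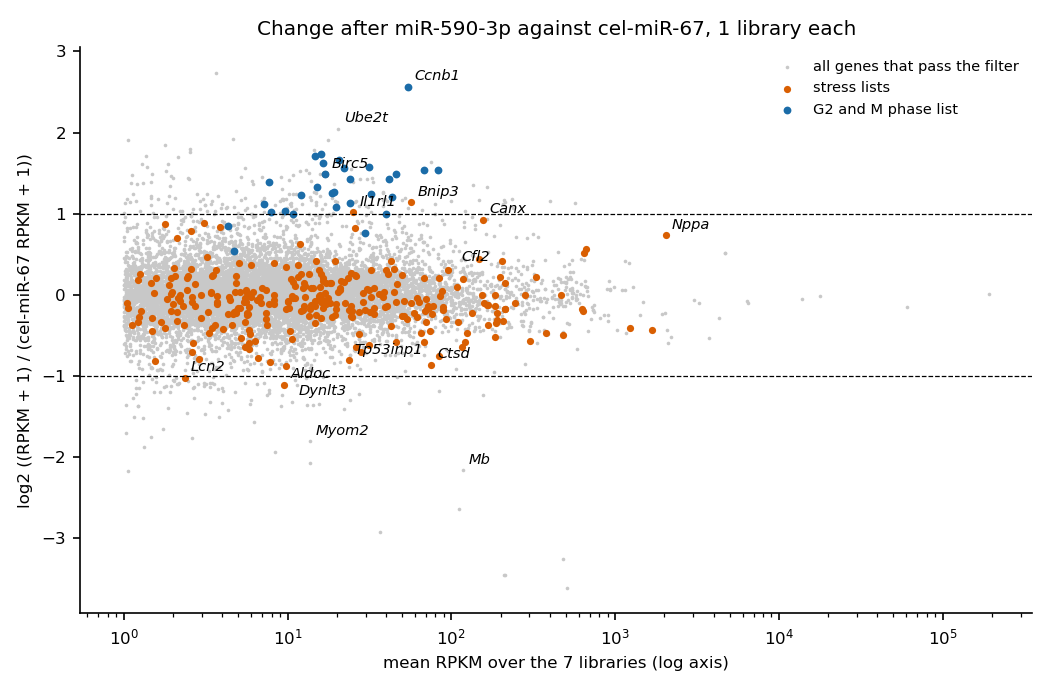
Each point is a gene with a mean of at least 1 RPKM, with the mean RPKM over the 7 libraries on a log axis against the change after miR-590-3p (log2, pseudocount 1 RPKM). Dashed lines mark 2-fold. The G2 and M phase genes lie high, with Ccnb1 at 2.57, while the stress genes lie around 0 with few beyond 2-fold.

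The G2 and M phase genes moved together, so the promoters of 3 of them are shown: Prc1, which encodes a microtubule bundler of the central spindle and changed by 1.54, Cdc20, an activator of the anaphase-promoting complex, by 1.24, and Pttg1, the anaphase inhibitor securin, by 1.73. Sequences are RefSeq promoters on build GRCr8, 250 bases before to 50 after the start, written 5′ to 3′ on the gene's strand, while the deposited table is on Rnor_6.0. Capitals mark the cell cycle homology region letters TTTGAA and the CCAAT box, searched on both strands, so that the reverse complement is capitalised where the match is on the other strand. No searched matches overlap in these 3.
Prc1 (chr1:143659231-143659530, plus strand): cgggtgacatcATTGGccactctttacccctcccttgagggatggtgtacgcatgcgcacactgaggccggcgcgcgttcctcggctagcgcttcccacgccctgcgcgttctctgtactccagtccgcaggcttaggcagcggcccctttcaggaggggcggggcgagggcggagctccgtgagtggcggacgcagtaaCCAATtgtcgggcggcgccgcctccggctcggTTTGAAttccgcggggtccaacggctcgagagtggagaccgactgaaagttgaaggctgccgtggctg
Cdc20 (chr5:137255750-137256049, minus strand): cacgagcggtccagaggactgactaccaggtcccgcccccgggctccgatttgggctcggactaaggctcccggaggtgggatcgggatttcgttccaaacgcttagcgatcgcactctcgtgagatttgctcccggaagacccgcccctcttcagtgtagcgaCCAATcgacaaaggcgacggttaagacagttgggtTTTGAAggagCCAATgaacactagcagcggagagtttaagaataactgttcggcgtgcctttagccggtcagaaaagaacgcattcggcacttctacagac
Pttg1 (chr10:28406277-28406576, minus strand): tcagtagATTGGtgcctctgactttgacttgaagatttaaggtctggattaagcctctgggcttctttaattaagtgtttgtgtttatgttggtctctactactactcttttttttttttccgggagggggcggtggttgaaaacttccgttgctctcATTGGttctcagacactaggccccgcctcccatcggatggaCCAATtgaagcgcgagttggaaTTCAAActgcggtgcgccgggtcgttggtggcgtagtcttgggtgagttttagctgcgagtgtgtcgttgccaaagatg
TTTGAA was found in 19 of the 26 G2 and M phase promoters in the table (73.1%), against 18.3% of all 33469 promoters and 11.6% of those of genes that passed the filter. CCAAT was found in 20 of the 26 (76.9%), against 37.5% of all promoters. The box was not particular to these genes: it was in 22 of 22 promoters of endoplasmic reticulum chaperones (100%), whose median change was -0.16, and in 13 of 23 heat shock promoters (56.5%). A match of letters is a description and not evidence of a bound factor.

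The lowest genes were of several kinds, among them loci of unknown product and some genes of muscle and matrix. The 6 lowest of the genes that passed the filter were AABR07015042.1, AABR07015080.1, AABR07015079.1 and AABR07015055.2, annotated as miRNA genes, and AABR07015057.1 and AABR07015081.2, annotated as protein-coding. Their names share a stem and reads could be split between them, so they are uncertain as separate genes. AABR07015042.1 stood at 125 RPKM after miR-590-3p, at 1015, 409, 115, 272 and 88.5 RPKM after the other 5 miRNAs and at 1535 RPKM after cel-miR-67, a change of -3.61. The libraries of miR-302d-3p and miR-373-3p were lower still, and miR-1825 was the closest to cel-miR-67.

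Mb, which encodes the oxygen-binding protein myoglobin, stood at 55.6 RPKM after miR-590-3p, at 39.3, 235, 41.2, 146 and 51.6 RPKM after the other 5 miRNAs and at 252 RPKM after cel-miR-67, a change of -2.16. miR-590-3p thus sat with miR-1825, miR-302d-3p and miR-373-3p, and away from miR-199a-3p. Myom2, myomesin 2 of the M-band, had 9.02 RPKM after miR-590-3p and 34.0 RPKM after cel-miR-67, a change of -1.80. Sln, sarcolipin, which inhibits the calcium pump of the sarcoplasmic reticulum, changed by -1.38, and Tcap, the titin cap of the Z-disc, by -1.22. Matrix genes among the lowest were Eln (elastin, -1.41), Adamtsl2 (-1.94) and Postn (periostin, -1.33). The lectin Reg3b (-2.08), the arrestin relative Arrdc3 (-1.36), the coenzyme Q synthesis gene Adck3 (-1.36), the selenium carrier Sepp1 (-1.35) and the surface proteoglycan Gpc3 (-1.30) also lay there, as did Dynlt3 and Stxbp6, which are described with the genes below the other 5. For the sarcomere list the median was -0.29, with 17 of 21 below 0 (50.2% of all genes) and 2 at least 2-fold lower, and for calcium handling and ion channel genes it was -0.26, with 17 of 20 below 0 and 1 at least 2-fold lower. The medians after the other 5 miRNAs were -0.35 to -0.18 for the first list and -0.35 to 0.10 for the second. Beside these lists, 6 of the 7 cardiomyocyte markers were below 0, with a median of -0.43, and 10 of the 12 fibroblast markers, with a median of -0.39.

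Few genes set miR-590-3p apart from the other miRNAs, and this comparison does not use cel-miR-67. Of 12330 genes, 12 were at least 1.5-fold above the highest of the other 5 miRNA libraries (0.0973%) and 25 at least 1.5-fold below the lowest (0.203%), both on RPKM + 1. Of these, 4 and 11 are protein-coding, and the others are mostly small RNA genes with few reads. The same counts were 60 and 119 for miR-1825, 84 and 169 for miR-199a-3p, 20 and 25 for miR-302d-3p, 45 and 41 for miR-33b*, and 9 and 44 for miR-373-3p. A shared seed is known for the pair miR-302d-3p and miR-373-3p. Across genes, the SD of the change was 0.35 after miR-590-3p and 0.38 to 0.44 after the other 5.

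**Figure D2:**
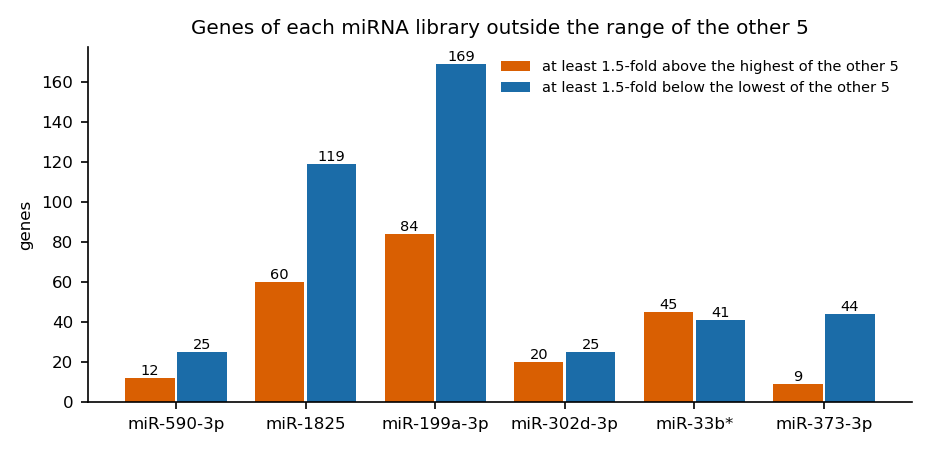
Bars give, for each of the 6 miRNA libraries, the number of genes at least 1.5-fold above the highest (orange) and below the lowest (blue) of the other 5, on RPKM + 1. miR-590-3p had 12 and 25, while miR-199a-3p had 84 and 169.

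Cfl2, the muscle cofilin that severs and depolymerises actin filaments and is one of the reported targets listed further on, was the farthest above among protein-coding genes. It stood at 197 RPKM after miR-590-3p, at 79.3, 74.1, 58.2, 109 and 69.2 RPKM after the other 5 miRNAs and at 155 RPKM after cel-miR-67. The miR-590-3p library alone was above cel-miR-67, by a ratio of read rates of 1.27 (exact 95% interval for counting error only, 1.24 to 1.30, from 14041 reads after miR-590-3p and 10277 after cel-miR-67), while the other 5 changed by -1.40 to -0.51. The other protein-coding genes at least 1.5-fold above were Lrrc4b, a synaptic adhesion protein, with 11.6 RPKM after miR-590-3p against 4.12 to 7.22 RPKM after the other 5 miRNAs and 14.6 RPKM after cel-miR-67, Ckmt2, the mitochondrial creatine kinase of muscle, with 4.24 RPKM after miR-590-3p, 1.38 to 2.42 RPKM after the other 5 and 3.52 RPKM after cel-miR-67, and Mt1, which is described with the antioxidant genes.

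Further protein-coding genes, of varied roles, led the other 5 by less than 1.5-fold. Scn3b, a beta subunit of sodium channels, stood at 19.2 RPKM after miR-590-3p, at 4.78 to 13.0 RPKM after the other 5 and at 22.8 RPKM after cel-miR-67. Tuba4a, an alpha tubulin, had 129 RPKM after miR-590-3p, 61.3 to 89.3 RPKM after the other 5 and 131 RPKM after cel-miR-67. For both genes miR-590-3p stayed near cel-miR-67 and the other 5 were lower. Slc2a4, the insulin-responsive glucose transporter GLUT4, differed, with 22.0 RPKM after miR-590-3p, 6.99 to 15.7 RPKM after the other 5 and 13.0 RPKM after cel-miR-67, above all 6 of the others. The genes Hpdl, Casd1, Cdr2, Cipc, Trex1, Arhgap19, Mafk, Mgst3 and AABR07048271.1 were 1.37- to 1.47-fold above the highest of the other 5, on RPKM + 1. Among them, Trex1 encodes an exonuclease that degrades cytosolic DNA, Mafk a small Maf transcription factor and Mgst3 a microsomal glutathione transferase.

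On the low side, Dynlt3, a dynein light chain, stood at 3.86 RPKM after miR-590-3p, at 11.95, 13.1, 12.04, 10.7 and 11.8 RPKM after the other 5 miRNAs and at 11.1 RPKM after cel-miR-67. The 6 other libraries lay close together and miR-590-3p was 2.41-fold under the lowest of the other 5 miRNA libraries, on RPKM + 1. Cbfb, the partner subunit of RUNX transcription factors, had 13.6 RPKM after miR-590-3p, 25.2 to 36.7 RPKM after the other 5 and 26.6 RPKM after cel-miR-67. Stxbp6, a binding partner of SNARE proteins, had 3.20 RPKM after miR-590-3p, 6.55 to 9.79 RPKM after the other 5 and 8.93 RPKM after cel-miR-67. In each of these genes miR-590-3p was the lowest of all 7 libraries. The same held for Esco1, an acetyltransferase for cohesin, with 6.29 RPKM after miR-590-3p, 11.1 to 12.3 RPKM after the other 5 and 11.4 RPKM after cel-miR-67, and for Stk39, a kinase that regulates ion cotransporters, with 4.66 RPKM after miR-590-3p, 8.32 to 12.1 RPKM after the other 5 and 8.09 RPKM after cel-miR-67. Lifr, the receptor for leukaemia inhibitory factor, had 2.93 RPKM after miR-590-3p, 4.64 to 6.08 RPKM after the other 5 and 5.56 RPKM after cel-miR-67. Hnrnpa3, an RNA-binding protein, was low under both of its identifiers, with 25.6 and 3.67 RPKM after miR-590-3p and 34.2 and 5.89 RPKM after cel-miR-67, and these near-identical copies may share reads.

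Genes reported in earlier work as targets of miR-590-3p or of other proliferation miRNAs gave no common direction. They were pooled in 1 list, which therefore does not show how the targets of miR-590-3p alone moved. Of 8, none was at least 2-fold changed, 6 were below 0 (50.2% of all genes) and the median was -0.14. Cfl2, whose values are given above, was the highest at 0.34, and the only one at least 1.5-fold above the other 5. Stk38l, a kinase near the Hippo pathway, was the lowest, with 30.7 RPKM after miR-590-3p, 32.5, 17.8, 22.0, 24.6 and 19.6 RPKM after the other 5 miRNAs and 45.3 RPKM after cel-miR-67. Homer1, a scaffold protein of calcium signalling, had 7.96 RPKM after miR-590-3p and 10.1 RPKM after cel-miR-67, a change of -0.30, and was the lowest of the 6 miRNA libraries, though the ratio to the next lowest, 0.980, had an interval that held 1 (0.877 to 1.09). Hopx, a homeodomain cofactor of cardiac transcription, had 16.4 RPKM after miR-590-3p, 21.2, 23.3, 30.0, 23.0 and 25.8 RPKM after the other 5 and 17.6 RPKM after cel-miR-67, so the other 5 were higher and miR-590-3p was not. The changes of the remaining members were -0.20 for Clic5, an intracellular chloride channel protein, -0.18 for Btrc and 0.16 for Fbxw11, ubiquitin ligase subunits, and -0.06 for Taok1, an upstream kinase of Hippo signalling.

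**Figure D3:**
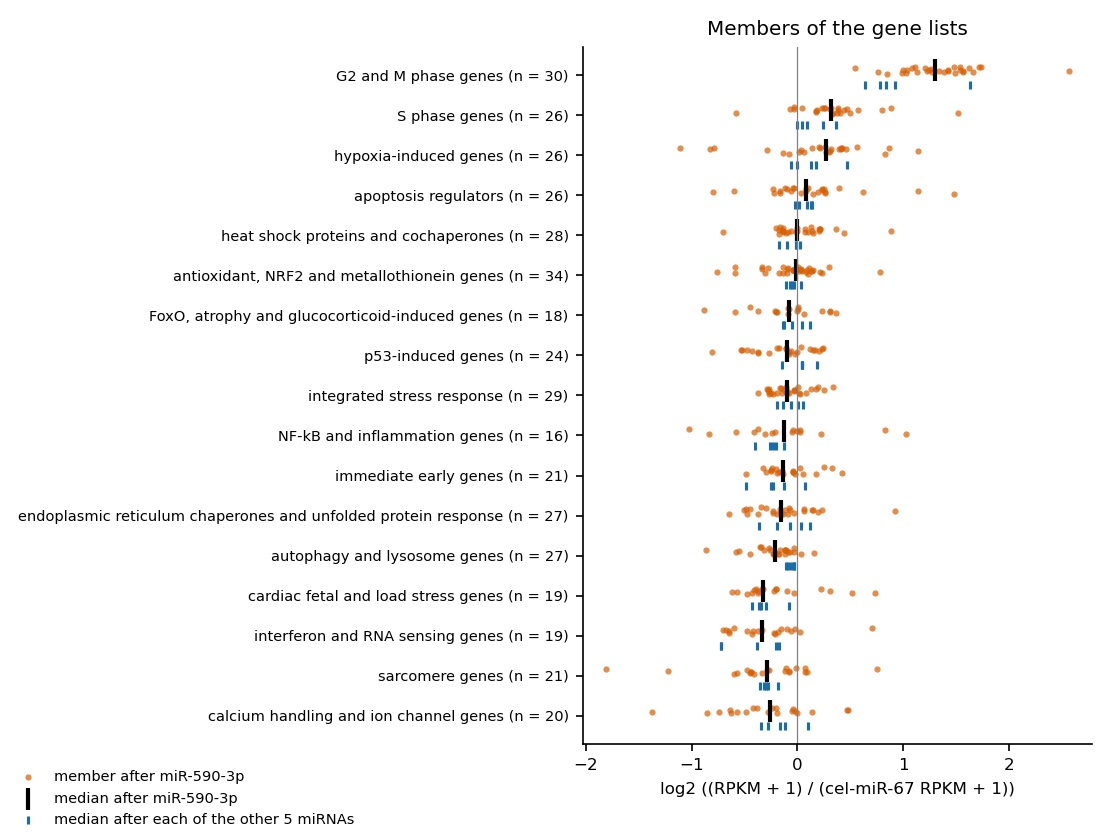
Orange points are the members of each gene list that passed the filter, by their change after miR-590-3p (log2, pseudocount 1 RPKM). Black bars are their medians and blue ticks the medians after each of the other 5 miRNAs. The G2 and M phase list lies at 1.30, while the stress lists lie between -0.34 and 0.27.

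The stress genes as a whole lay slightly below cel-miR-67. Of 346 symbols in the 13 lists, 331 matched and 300 entries passed the filter. Of these, 3 were at least 2-fold higher (Birc5, Bnip3 and Il1rl1) and 2 at least 2-fold lower (Aldoc and Lcn2). Over all genes the shares were 1.51% higher and 0.762% lower. The median change was -0.09, with 111 above 0 (49.7% of all genes) and 189 below (50.2%). The counting interval of the ratio to cel-miR-67 lay under 1 for 127 (23.5% of all genes) and above 1 for 65 (24.2%). miR-590-3p gave the highest of the 6 miRNA values for 38 (12.7%, beside 13.9% of all genes) and the lowest for 36 (beside 13.5%), so both shares were near the background. Single lists departed from this in both directions.

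Autophagy and lysosome genes were low. Of 27 members, 25 were below 0 (50.2% of all genes), with a median of -0.21 after miR-590-3p beside -0.11 to -0.03 after the other 5 miRNAs. miR-590-3p was the lowest of the 6 miRNA libraries for 11 members (40.7%, beside 13.5% of all genes). For 4 of these 11, the counting interval of the ratio to the next lowest miRNA library lay under 1. The same share was not computed over all genes, so the 4 are not read as a result about the list. The list was the only one of the 13 stress lists whose median lay outside the range of the other 5 miRNAs. The counting interval of the ratio lay under 1 for 16 members (23.5% of all genes) and above 1 for none (24.2%). Ctsd, the lysosomal protease cathepsin D, stood at 45.1 RPKM after miR-590-3p, at 57.6, 72.2, 101, 81.0 and 88.7 RPKM after the other 5 miRNAs and at 82.8 RPKM after cel-miR-67, a change of -0.86. Ctsb, cathepsin B, had 139 RPKM after miR-590-3p, 174, 187, 221, 217 and 215 RPKM after the other 5 and 173 RPKM after cel-miR-67. Ctsl, cathepsin L, had 170 RPKM after miR-590-3p, 212, 193, 236, 265 and 222 RPKM after the other 5 and 192 RPKM after cel-miR-67. For all 3 proteases miR-590-3p was the lowest of the 7 libraries. The lysosomal membrane protein Lamp1 had 93.0 RPKM after miR-590-3p and 118 RPKM after cel-miR-67. Among genes of autophagosome formation, Map1lc3a, Atg13 and Ulk1 stood at 37.0, 9.03 and 1.10 RPKM after miR-590-3p, against 56.0, 13.7 and 1.86 RPKM after cel-miR-67. Gabarapl1, of the same process, went the other way and was the highest member of the list, with 11.8 RPKM after miR-590-3p and 10.4 RPKM after cel-miR-67, a ratio whose interval held 1 (0.986 to 1.29), and Atg3 changed by -0.08. Becn1 (-0.03) and the adaptor Sqstm1 (0.03) were at the level of cel-miR-67.

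Heat shock genes kept a median of 0 (-0.0037), with 14 members above 0 and 14 below, but miR-590-3p was the highest of the 6 miRNA libraries for 9 of 28 (32.1%, beside 13.9% of all genes). Hspb1, the small heat shock protein HSP27, stood at 201 RPKM after miR-590-3p, at 168, 123, 135, 164 and 88.3 RPKM after the other 5 miRNAs and at 148 RPKM after cel-miR-67, the highest of all 7 libraries, with a change of 0.44. The small heat shock genes of muscle Hspb3 and Hspb8 had 142 and 58.3 RPKM after miR-590-3p, 72.8 to 121 and 37.2 to 51.2 RPKM after the other 5, and 133 and 53.2 RPKM after cel-miR-67. Cryab, alpha B-crystallin, had 778 RPKM after miR-590-3p, above the 397 to 723 RPKM of the other 5 and below the 880 RPKM after cel-miR-67. Hspb6 behaved otherwise, with 32.9 RPKM after miR-590-3p, 48.3, 28.6, 4.64, 23.3 and 5.18 RPKM after the other 5 and 54.3 RPKM after cel-miR-67. Hspa4l, a nucleotide exchange factor of HSP70, had the largest change of the list, 0.88, with 4.97 RPKM after miR-590-3p and 2.24 RPKM after cel-miR-67.

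The promoter of Hspb1 is shown because its gene led all 7 libraries. Capitals mark the heat shock element letters GAANNTTC, which read alike on both strands.
Hspb1 (chr12:26432252-26432551, minus strand): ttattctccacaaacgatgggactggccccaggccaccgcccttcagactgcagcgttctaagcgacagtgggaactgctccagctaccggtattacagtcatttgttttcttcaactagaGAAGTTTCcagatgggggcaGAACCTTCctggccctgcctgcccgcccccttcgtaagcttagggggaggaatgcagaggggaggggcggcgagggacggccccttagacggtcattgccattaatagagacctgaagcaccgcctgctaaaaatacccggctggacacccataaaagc
GAANNTTC was found in 12 of the 23 heat shock promoters in the table (52.2%), against 8.59% of all promoters.

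**Figure D4:**
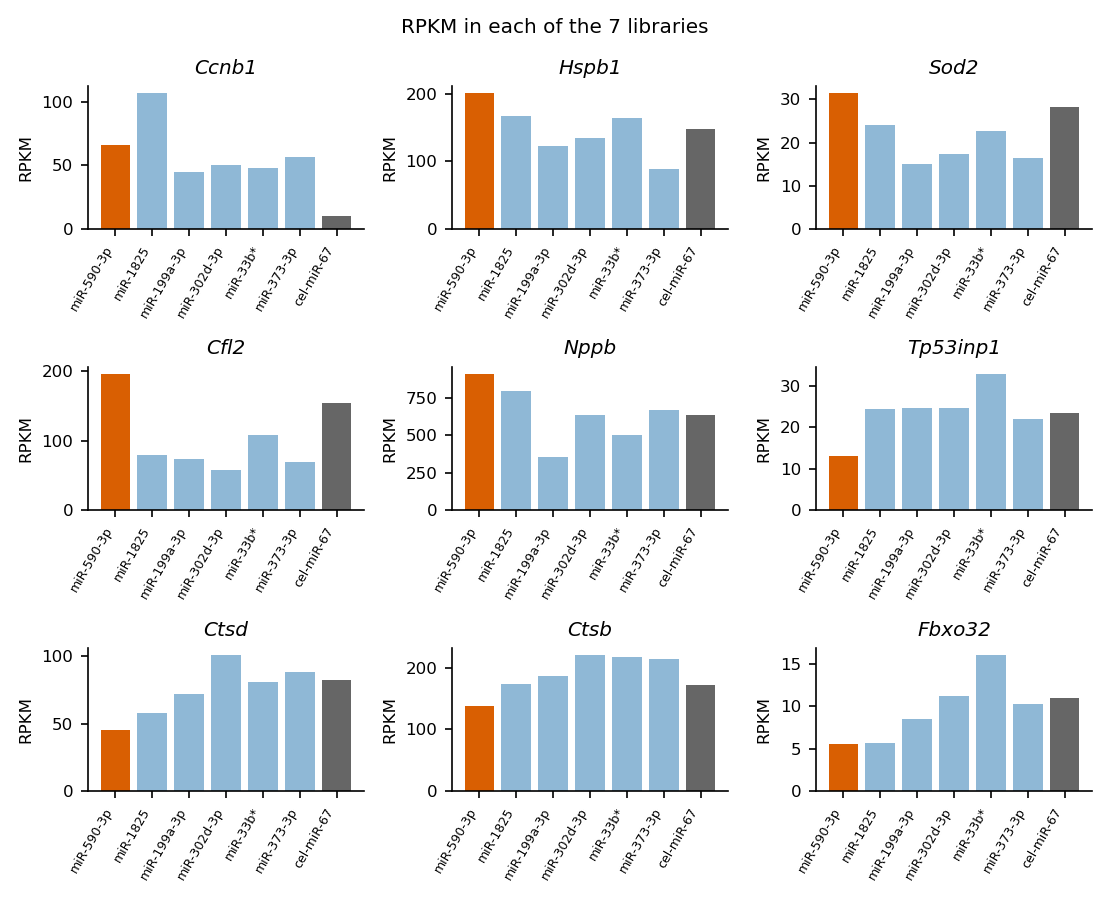
Bars give the RPKM of 9 genes in each library, with miR-590-3p (orange) at the left, the other 5 miRNAs (light blue) in the middle and cel-miR-67 (grey) at the right, 1 library each. Ccnb1 is high after all 6 miRNAs, Hspb1, Sod2, Cfl2 and Nppb are highest after miR-590-3p, and Tp53inp1, Ctsd and Ctsb are lowest after it. Fbxo32 is low after both miR-590-3p and miR-1825.

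Antioxidant genes were split, with 17 of 34 above 0 and a median of -0.01. Sod2, the superoxide dismutase of mitochondria, stood at 31.5 RPKM after miR-590-3p, at 24.0, 14.98, 17.4, 22.8 and 16.5 RPKM after the other 5 miRNAs and at 28.3 RPKM after cel-miR-67. The ratio to cel-miR-67 was 1.12 (1.04 to 1.20), and the other 5 were all below cel-miR-67. Prdx3 and Prdx5, mitochondrial peroxiredoxins, followed the same order, with 105 and 39.8 RPKM after miR-590-3p, 69.6 to 95.9 and 26.2 to 35.2 RPKM after the other 5 and 102 and 37.4 RPKM after cel-miR-67. Mt1, a metal-binding metallothionein, had 5.29 RPKM after miR-590-3p, 2.68, 1.59, 1.82, 2.18 and 1.69 RPKM after the other 5 and 2.66 RPKM after cel-miR-67. It was the only stress gene at least 1.5-fold above the other 5, but on 45 reads after miR-590-3p and 21 after cel-miR-67, and the table holds another entry of that symbol below the filter. The glutathione transferase Gsta4 was the lowest member, with 52.2 RPKM after miR-590-3p and 88.9 RPKM after cel-miR-67, level with miR-1825 at 52.9 RPKM. Hmox1, heme oxygenase, had 9.33 RPKM after miR-590-3p, 11.2 to 12.8 RPKM after the other 5 and 9.60 RPKM after cel-miR-67.

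None of the 24 p53-induced genes was highest after miR-590-3p among the 6 miRNA libraries (13.9% of all genes), and 5 were lowest (20.8%, beside 13.5% of all genes). Tp53inp1, a p53-induced nuclear protein that also acts in autophagy, stood at 13.0 RPKM after miR-590-3p, at 24.4, 24.7, 24.6, 32.9 and 22.1 RPKM after the other 5 miRNAs and at 23.5 RPKM after cel-miR-67. It was the only stress gene at least 1.5-fold below the other 5, and its ratio to cel-miR-67 was 0.552 (0.480 to 0.635, from 323 reads after miR-590-3p and 543 after cel-miR-67). Sesn1, a sestrin, had 2.56 RPKM after miR-590-3p, 3.48, 3.20, 3.41, 5.24 and 3.77 RPKM after the other 5 and 3.61 RPKM after cel-miR-67. Aen, an apoptosis-enhancing nuclease, had 10.7 RPKM after miR-590-3p, 12.9 to 17.3 RPKM after the other 5 and 12.2 RPKM after cel-miR-67. Cdkn1a, the cell cycle inhibitor p21, had 9.03 RPKM after miR-590-3p and 9.61 RPKM after cel-miR-67, and Phlda3 was the highest member at 0.24. The list's median was -0.09, with -0.14 to 0.19 after the other 5.

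Among apoptosis regulators, 15 of 26 were above 0 (49.7% of all genes) and 2 at least 2-fold higher (1.51% of all genes). Birc5, survivin, which is also a mitotic protein, had 20.9 RPKM after miR-590-3p, 24.2, 12.6, 17.3, 19.7 and 17.0 RPKM after the other 5 miRNAs and 6.82 RPKM after cel-miR-67. Bnip3, a hypoxia-induced mitophagy receptor, had 73.6 RPKM after miR-590-3p, 69.6, 36.6, 30.1, 104 and 51.8 RPKM after the other 5 and 32.8 RPKM after cel-miR-67. Both were thus within the range of the other 5. The BH3-only killer genes Bmf and Bcl2l11 were lowest after miR-590-3p, at 1.79 and 0.868 RPKM, with 2.35 to 3.96 and 1.39 to 4.67 RPKM after the other 5 and 3.83 and 1.83 RPKM after cel-miR-67. The mitochondrial nuclease Endog was highest after miR-590-3p, with 14.3 RPKM, 9.54 to 13.7 RPKM after the other 5 and 8.90 RPKM after cel-miR-67.

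Hypoxia-induced genes were higher as a list, with 20 of 26 above 0 (49.7% of all genes). Their median was 0.27, inside the range of -0.06 to 0.47 after the other 5 miRNAs. Glycolytic members were among those above 0, with Ldha at 748 RPKM after miR-590-3p and 504 RPKM after cel-miR-67, and Pgk1 at 232 RPKM after miR-590-3p and 174 RPKM after cel-miR-67. Aldoc, an aldolase, went the other way, with 6.22 RPKM after miR-590-3p, 5.24, 5.04, 6.90, 22.5 and 6.55 RPKM after the other 5 and 14.6 RPKM after cel-miR-67. Epas1, which encodes the hypoxia factor HIF-2 alpha and is abundant in endothelium, was lowest after miR-590-3p, with 1.08 RPKM against 1.21 to 1.80 RPKM after the other 5 and 2.67 RPKM after cel-miR-67. All 5 endothelial markers that passed the filter were below 0, with a median of -0.67 after miR-590-3p and -0.55 to -0.31 after the other 5. The filter's mean includes cel-miR-67, so it favours genes that are high there, and without the filter the median after miR-590-3p was -0.19. Plvap, the lowest of these markers, had 0.828 RPKM after miR-590-3p, 0.670 to 1.23 RPKM after the other 5 and 2.21 RPKM after cel-miR-67. A link between Epas1 and these markers was not tested.

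Cardiac fetal and load genes were below cel-miR-67 for 15 of 19 members (50.2% of all genes), while the natriuretic peptides were above it. The median of the list was -0.32, inside the range of -0.43 to -0.08 after the other 5 miRNAs. With the mean of the other 5 miRNA libraries as the denominator the median turned to 0.083. Nppb, which encodes brain natriuretic peptide, stood at 913 RPKM after miR-590-3p, at 795, 354, 635, 500 and 673 RPKM after the other 5 miRNAs and at 636 RPKM after cel-miR-67. Nppa, atrial natriuretic peptide, had 3098 RPKM after miR-590-3p, 3054, 561, 1649, 1948 and 2074 RPKM after the other 5 and 1860 RPKM after cel-miR-67. Both peptides were highest after miR-590-3p and next highest after miR-1825. Ankrd1, a stretch-responsive repressor, had 2043 RPKM after miR-590-3p, 1052 to 1559 RPKM after the other 5 and 2753 RPKM after cel-miR-67, so of the 6 miRNA libraries that of miR-590-3p was the closest to cel-miR-67. Xirp2, a protein of the intercalated disc and Z-disc, was the lowest member at -0.62, within the range of -2.78 to -0.24 after the other 5.

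The remaining programmes were within the range of the other 5 miRNAs by their medians. Endoplasmic reticulum chaperones had 20 of 27 members below 0 (50.2% of all genes) and a median of -0.16. Hspa5, the main chaperone of that compartment, had 413 RPKM after miR-590-3p and 585 RPKM after cel-miR-67, and Herpud1, of its degradation machinery, had 27.5 RPKM after miR-590-3p, 15.2 to 26.1 RPKM after the other 5 and 43.6 RPKM after cel-miR-67. Canx, the lectin chaperone calnexin, was the exception at 0.93, with 153 RPKM after miR-590-3p, 147 to 195 RPKM after the other 5 and 80.2 RPKM after cel-miR-67, so all 6 miRNA libraries were high. The integrated stress response had a median of -0.10, with changes from -0.37 (Gdf15) to 0.34 (Trib3), and its factor Atf4 had 156 RPKM after miR-590-3p and 170 RPKM after cel-miR-67. Immediate early genes had a median of -0.14, from Fos at -0.48 to Jund at 0.42. FoxO and glucocorticoid-induced genes had a median of -0.08, and Fbxo32, the atrophy ubiquitin ligase atrogin-1, was their lowest at 5.53 RPKM after miR-590-3p, 5.66, 8.48, 11.3, 16.1 and 10.3 RPKM after the other 5 and 11.0 RPKM after cel-miR-67. Fbxo32 was level with miR-1825, at a ratio of 0.976 with an interval that held 1 (0.855 to 1.11).

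Interferon and RNA sensing genes, which foreign RNA can induce, were below cel-miR-67 for 17 of 19 members (50.2% of all genes). Their median was -0.34, inside the range of -0.72 to -0.18 after the other 5 miRNAs. That median turned to 0.14 where the other 5 miRNAs, averaged, served as the denominator. Ifit1 had 2.36 RPKM after miR-590-3p and 4.46 RPKM after cel-miR-67. Irf7, the amplifier of the interferon response, was closest to cel-miR-67 after miR-590-3p, with 7.95 RPKM, 2.46 to 5.52 RPKM after the other 5 and 11.1 RPKM after cel-miR-67. NF-kB and inflammation genes had a median of -0.13, with Lcn2, lipocalin 2, at 1.57 RPKM after miR-590-3p and 4.22 RPKM after cel-miR-67 on 34 reads after miR-590-3p and 85 after cel-miR-67, and Il1rl1, the receptor of interleukin 33, at 30.6 RPKM after miR-590-3p, 19.7 to 32.6 RPKM after the other 5 and 14.5 RPKM after cel-miR-67. Ccl20, a chemokine, had 2.55 RPKM after miR-590-3p, 8.06, 4.04, 15.6, 6.74 and 12.4 RPKM after the other 5 and 5.32 RPKM after cel-miR-67, the lowest of all 7.

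Stress genes on the opposite side of cel-miR-67 from all of the other 5 miRNAs numbered 16. After miR-590-3p, 9 of the 300 were above cel-miR-67 while the other 5 were below it (3%, beside 2.35% of all genes), and 7 were below while the other 5 were above (2.33%, beside 2.4%). The 9 were the chaperone genes Dnajb4, Dnajb5, Hspb3 and Hspb8, the mitochondrial antioxidant genes Sod2, Prdx3 and Prdx5, the apoptosis effector Bak1 and the chemokine Cxcl1. The 7 were the lysosomal proteases Ctsb and Ctsl, the autophagy enzyme Atg3, the p53-induced genes Aen and Ei24, Hmox1 and the chaperone Hsp90ab1. These genes were picked by their sides, so the split itself is no result, and the differences from cel-miR-67 were small, from -0.32 (Ctsb) to 0.15 (Sod2). The counting interval of the ratio to cel-miR-67 lay off 1 for 4 of the 9 (Sod2, Dnajb5, Hspb3 and Hspb8) and for 3 of the 7 (Ctsb, Ctsl and Aen), and held 1 for the other 9 genes.

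**Figure D5:**
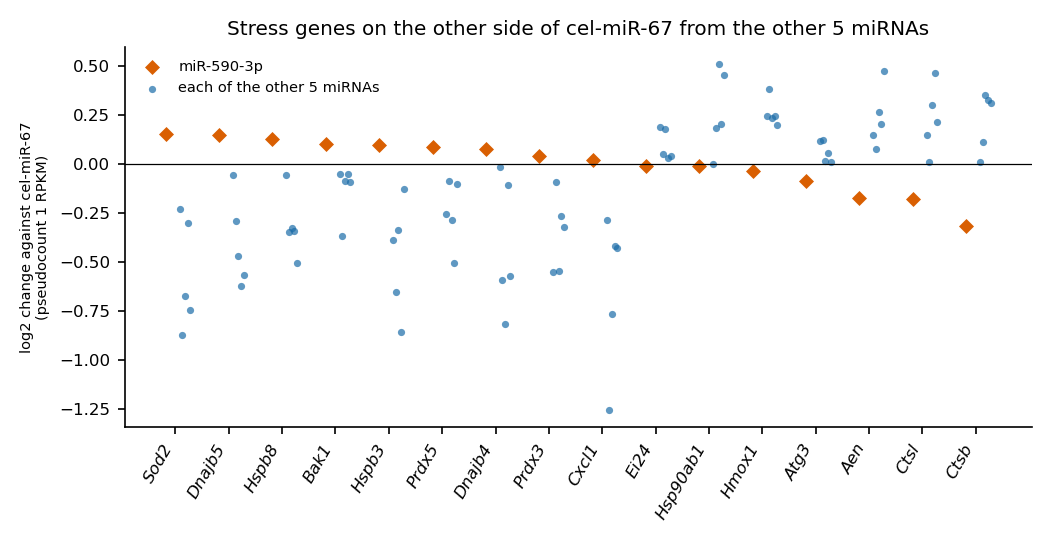
Orange diamonds give the change of the 16 stress genes after miR-590-3p and blue points the change after each of the other 5 miRNAs (log2 against cel-miR-67, pseudocount 1 RPKM). The diamonds lie within -0.32 and 0.15 of the zero line, and the blue points reach -1.25 for Cxcl1 and 0.51 for Hsp90ab1.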

How the data were processed

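Messenger RNA libraries of 7 transfected cultures were analysed, 1 library per miRNA, with groups taken from the treatment in the labels. RPKM values and their ratios to cel-miR-67 were computed by the authors and deposited, per the file headers. The submitters' processing notes mention Rnor_6.0 as a genome build, and edgeR and STAR (2.7) as tools, with no role for either. Strand use and annotation version are not given in the sources here, so overlapping and antisense genes cannot be told apart. All 117199 deposited ratios whose numerator and denominator exceed 0 matched the RPKM (relative tolerance 1e-06), and they were not used further.

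The filter kept genes whose mean over the libraries reached 1 RPKM (the entry just inside was Sh3rf1 at 1.00 and just outside Klhdc7a at 0.999 RPKM). Changes are log2 of RPKM plus a pseudocount of 1. Whole reads were recovered from the RPKM for 100% of genes, within 0.002 reads, rising to 0.05 reads for high genes, and gave exact (Clopper-Pearson) 95% intervals for ratios of read rates. These cover counting error only and compare libraries, not conditions. The library sizes by which the RPKM divide were recovered too, and are not the totals of the listed reads. They were 24422719 for miR-590-3p, 22674410 for cel-miR-67 and 27055357 for miR-199a-3p, against 26468593, 24836246 and 23144651 listed reads. How the authors set these sizes is not given in the sources here, and the intervals and ranks rest on them. Counting and recovery were tested on simulated data. No test was possible with 1 library a group.

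The members and the 26 gene lists (520 symbols, 497 matched, 5 by an older symbol) were chosen with earlier results of these data known. Genes named are protein-coding with a mean of at least 5 RPKM among the 15 highest or lowest changes or the 15 farthest above or below the other 5 miRNAs, plus list members at least 2-fold changed, at least 1.5-fold outside the other 5, opposite to them in a stress list, or extreme in their list, and the reported targets. Cdc20 and Prc1 came by these rules. Genes outside them were chosen after their values were seen: Hspb1, Cryab, Nppb, Ankrd1, Lamp1, Map1lc3a, Atg13, Ulk1, Becn1, Sqstm1, Sesn1, Cdkn1a, Bcl2l11, Endog, Ldha, Pgk1, Epas1, Hspa5, Atf4, Irf7, Ccl20, Ckmt2, Cdkn1c, Itih4, Tnnt2, Myh6 and the AABR07015 loci annotated as miRNA genes. Promoters matched by symbol to a RefSeq table of 33469 entries. Python 3.11.15, numpy 2.4.6, pandas 2.3.3, scipy 1.17.1 and matplotlib 3.10.9 were used.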

Additional observations from a re-analysis of the deposited data

How the results depend on the processing

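Counts of genes depended on the pseudocount, since by the formula a larger one makes every change smaller in size. With 0.1 in place of 1 RPKM, 317 genes were at least 2-fold higher, 202 at least 2-fold lower, 34 at least 1.5-fold above the other 5 miRNA libraries and 71 below them, and with 5 RPKM these counts were 60, 21, 2 and 3. With no filter on low values, 21 genes were above the other 5. With a mean of at least 5 RPKM, 37 were 2-fold lower, 3 above and 9 below. Among protein-coding genes alone, 47 were 2-fold lower, 4 above and 11 below. Where the counting interval also had to exclude 1, an alternative chosen after seeing the data, 5 were above and 11 below. List medians moved in fewer cases. With 0.1 RPKM erythroid markers had -0.76. With 5 RPKM G2 and M phase genes had 1.05, endothelial markers -0.31 and erythroid markers -0.20. Without the filter endothelial and erythroid markers had -0.19 and -0.10. With the mean of the other 5 miRNA libraries as the denominator, cardiac fetal genes turned to 0.083 and interferon genes to 0.14. With that denominator hypoxia-induced genes had 0.020, immediate early genes 0.059, NF-kB genes 0.13, G2 and M phase genes 0.22, S phase genes 0.12, sarcomere genes -0.026 and endothelial markers -0.11, and Cnn1 turned to -0.21, Eln to 0.18 and Tcap to 0.25. That construction takes away what the 6 miRNAs share. Scaling without mitochondrial transcripts and centring on the median gene left all 4 counts within 1.5 times and moved no list median beyond its interval. No paired analysis was possible because each miRNA has 1 library, and for the same reason no library could be left out of a group. Depth limits genes with few reads, such as Mt1, Lcn2 and Cxcl1.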
